A study of Mus musculus with 2 samples.

Results

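Barcodes that held RNA of Mgp, the gene of matrix Gla protein, and none of Ptprc, which encodes the pan-leukocyte protein CD45, made up 182 of the 5686 cell barcodes of 2 single-cell libraries from MC38 tumours. A barcode belonged to them when it had at least 300 detected genes, under 10% mitochondrial UMIs and at least 1000 UMIs. It also had 0 UMIs of each of Ptprc, Tyrobp, Fcer1g, Laptm5, Col1a1 and Pecam1, and at least 2 UMIs of Mgp. A UMI is a molecular tag that counts 1 captured RNA molecule. The barcodes were thus selected on their counts of Mgp and of the 6 excluded genes, and the levels of Mgp and of the markers proposed with it (Sparcl1, Col5a2, Bgn and Aqp1) are given as a description. Barcodes that passed every criterion but the Mgp one, called gated barcodes below, served for comparison at 0 Mgp UMIs in the same library.

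MC38 is a mouse colon carcinoma line that is grown as a tumour in mice. The labels describe cells sorted by flow cytometry as immune cells from such tumours on day 21, and they put both libraries in 1 group as replicates 1 and 2. Words in the names of the deposited files differ between the libraries and the labels leave them unexplained, so that both are replicates of 1 condition rests on the labels alone. The labels give no genotype, strain, age or treatment and do not say whether the replicates came from separate animals. RNA of sex-linked genes, described below, differed between the libraries in the way that animals of different sex do. The libraries were made by droplet capture of the 3′ ends of polyadenylated RNA.

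Matrix Gla protein is a small secreted protein that needs vitamin K for the carboxylation of its glutamate residues. It binds calcium mineral and bone morphogenetic proteins (BMPs) and is best known for keeping artery walls and cartilage free of calcification. Fibroblasts, vascular smooth muscle cells, endothelial cells and chondrocytes are known sources, and many tumours also contain its RNA.

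The Mgp-positive barcodes were all in replicate 2. In replicate 1, 0 of 495 gated barcodes had 2 or more Mgp UMIs, which allows a share of up to 0.606% at 3 counts of 495 (exact upper limit 0.742%). In replicate 2 it was 182 of 711, or 25.6% (exact Clopper-Pearson 95% interval 22.4% to 29.0%), and 12.9% had 2 or more after thinning to 1000 UMIs per barcode. The whole library of replicate 1 held 1 Mgp UMI among 5688000, against 2800 among 5862342 in replicate 2, where they lay in 487 barcodes. The gated barcodes had similar depth in both libraries, with a median of 2259 UMIs in replicate 1 and 2566 in replicate 2. They were less alike in detected genes, with a median of 758 and 1001. Their median share of mitochondrial UMIs was 4.04% and 3.38%. No barcode sequence occurred in both libraries. With all Mgp-positive barcodes in 1 library, their presence cannot be told apart from any other difference between the libraries, and no comparison below has a replicate check.

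**Figure D1:**
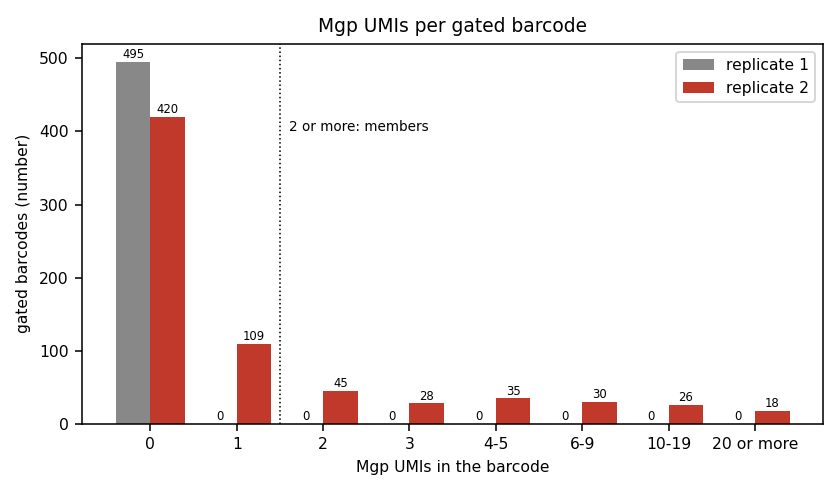
Number of gated barcodes (y axis) by their Mgp UMIs (x axis), with grey bars for replicate 1 and red bars for replicate 2. All 495 gated barcodes of replicate 1 stand at 0, while 291 of replicate 2 hold 1 or more, and the dotted line marks the threshold of 2 UMIs.

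Mgp levels varied widely among the 182 barcodes. The lowest had 2 UMIs, the median 5 and the highest 235, and the next highest had 167 and 50. The 2 highest barcodes together held 402 of the 1784 Mgp UMIs, or 22.5%. Relative to depth, the level ran from 2.22 Mgp UMIs per 10000 UMIs through a median of 14.4 to a maximum of 489.7. There was no gap at the threshold, since 109 gated barcodes of replicate 2 held exactly 1 Mgp UMI and 45 held exactly 2.

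The Mgp-positive barcodes were deeper than those they were compared with. Their median was 3267 UMIs and 1208 genes, against 2261 UMIs and 939.5 genes for the 420 gated barcodes at 0 Mgp UMIs. Mitochondrial UMIs took a median of 3.43% and 3.27%. When every barcode was thinned to 1000 UMIs, 76.9% of the Mgp-positive barcodes still held an Mgp UMI. Of the 460 barcodes of replicate 2 with both Ptprc and Tyrobp UMIs, called immune barcodes below, 2.39% did so at the same depth. Before thinning, 3.48% of the immune barcodes had an Mgp UMI at a median depth of 1785.5 UMIs.

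Counts were summed over the barcodes of each class and scaled to counts per 1000000 UMIs (CPM). Summed Mgp stood at 2406 CPM in the Mgp-positive barcodes (exact Poisson 95% interval 2296 to 2521) and at 59.3 CPM in the immune barcodes. Among the barcodes that the gate removed, the 16 of replicate 2 with 2 or more UMIs of Col1a1, a fibroblast collagen gene, had 1550 CPM, and the 18 with exactly 1 Col1a1 UMI had 1851 CPM (1538 to 2208). All intervals on levels and folds below are of this kind and cover counting error only. They treat the summed UMIs of a class as independent counts and say nothing of the spread between barcodes, animals or libraries.

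To follow each gene over the range of Mgp counts, the gated barcodes of replicate 2 were split into those with 0 Mgp UMIs (420), with 1 (109), with 2 to 3 (73), with 4 to 9 (65) and with 10 or more (44). Sparcl1, a secreted relative of the matrix protein SPARC, stood at 41.3 CPM in the first of these classes, then at 77.6, 87.7, 196 and 270.2 CPM. Col5a2, a chain of the fibril-regulating collagen V, stood at 39.7, 77.6, 81.0, 118 and 170.1 CPM in the same order. Bgn, the gene of biglycan, a small leucine-rich proteoglycan, stood at 160, 227, 263, 347 and 650.4 CPM. All 3 were higher in each class than in the one before it, and the counting intervals of the first and the last class did not overlap. Aqp1, a water channel, stood at 253, 327, 307, 384 and 435 CPM, with a smaller difference between its ends.

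Over all 182 Mgp-positive barcodes against the 420 at 0 Mgp UMIs, Sparcl1 was 4.18-fold higher (3.01 to 5.88), Col5a2 2.95-fold (2.07 to 4.26), Bgn 2.48-fold (2.06 to 2.97) and Aqp1 1.45-fold (1.23 to 1.71). The gated barcodes of replicate 1, which lacked Mgp, had 0 CPM of Sparcl1, 4.03 of Col5a2, 2.88 of Bgn and 6.90 of Aqp1. In those barcodes all 4 were thus far below even the Mgp-negative barcodes of replicate 2. The label's markers were therefore high across the gated barcodes of replicate 2 as a whole, and higher still with Mgp.

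**Figure D2:**
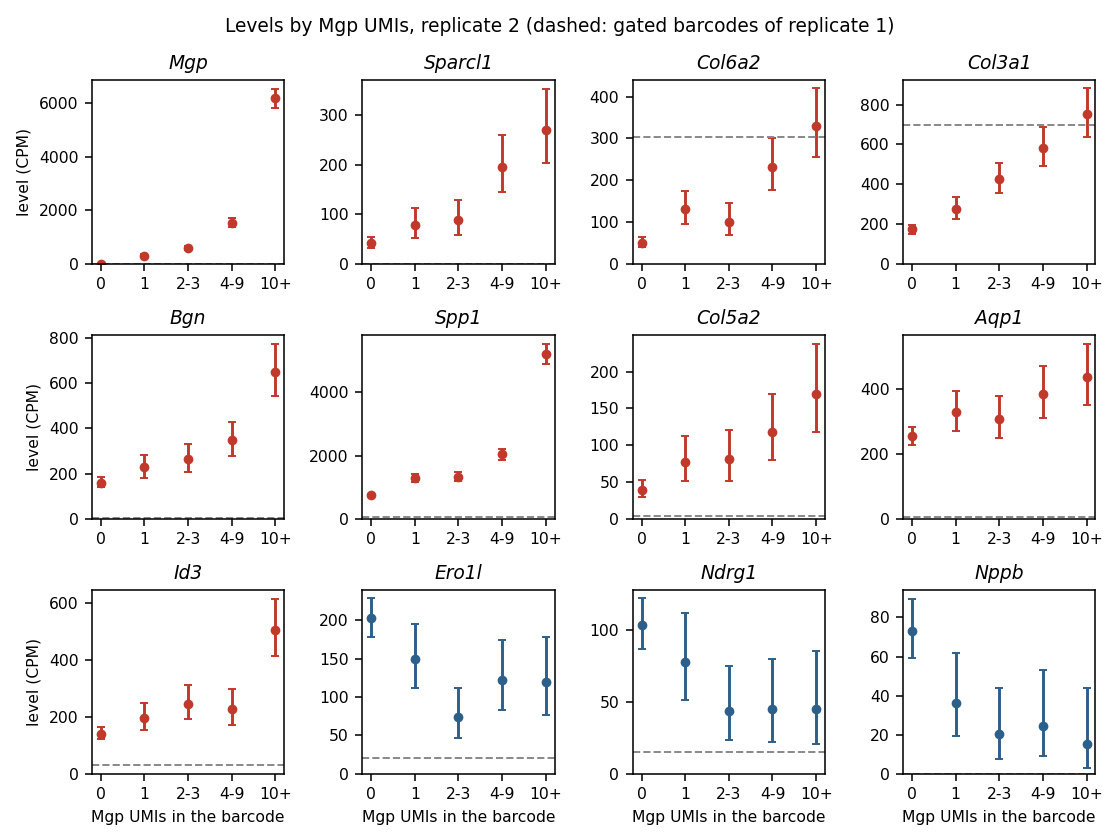
Level in CPM (y axes) of 12 genes in the gated barcodes of replicate 2, by Mgp UMIs of the barcode (x axes), with exact Poisson 95% intervals as bars and the level in the gated barcodes of replicate 1 as a dashed line. Sparcl1 goes from 41.3 to 270.2 CPM between the first and the last class, and Nppb from 73.2 to 15.0 CPM, with 36.0, 20.2 and 24.5 CPM in between.

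For the comparison across genes, a gene was counted as higher or lower when its CPM ratio reached 1.5-fold among genes of at least 20 CPM over all 711 gated barcodes of replicate 2. These limits were chosen after the data were seen and are no test. Of 4670 such genes, 294 (6.30%) were higher and 280 (6.0%) lower in the Mgp-positive barcodes, 12.3% in all. The median log2 ratio was -0.0019, and 9 in 10 genes lay between -0.63 and 0.65. The counts depended on the limits and on the UMIs behind each ratio, with 69 higher and 56 lower genes at a minimum of 50 CPM, and 751 and 831 after thinning to 1000 UMIs. With the Mgp-negative barcodes weighted to the depth of the Mgp-positive ones they were 333 and 320. The shares at the main limits are the background for the counts by gene list below, all of which come from the contrast that chose the barcodes. Of the list genes counted, Col4a1, Col8a1, Loxl3, Ltbp3, Plat, Furin, Bmpr2, Hk2, Gins2, Mcm3 and Aurkb had a counting interval that included a ratio of 1.

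The 10 genes with the highest ratio among those of 50 CPM or more in the higher class were Sparcl1, Col6a2, Ly6c1, Cp, Spp1, Rhox5, Col3a1, Hopx, Col5a2 and Maged1. Sparcl1 and Col5a2 are given markers, and genes such as Cp (17.1 CPM at 0 Mgp UMIs) and Rhox5 (19.5) reached 50 CPM through the Mgp-positive class only, so the make-up of this list supports nothing further. Col6a2, a chain of the microfibrillar collagen VI, stood at 206 CPM against 50.6, a 4.08-fold difference (3.03 to 5.54). Spp1, the gene of osteopontin, a secreted adhesive phosphoprotein of bone and of macrophages, stood at 2610 CPM against 748, or 3.49-fold (3.23 to 3.77). Col3a1, the chain of collagen III, stood at 566.5 CPM against 173, or 3.28-fold (2.78 to 3.87).

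Genes of other functions were among them. Ly6c1, of the Ly6 family of surface proteins, was 3.78-fold higher (2.24 to 6.57), and Cp, the gene of ceruloplasmin, a copper-carrying ferroxidase, 3.70-fold (2.19 to 6.45). Rhox5, an X-linked homeobox gene, was 3.40-fold higher (2.06 to 5.74), Hopx, a homeodomain protein that does not bind DNA, 3.23-fold, and Maged1, of the MAGE family, 2.57-fold. For 9 of the 10 genes the class with 1 Mgp UMI lay between the class with 0 and the Mgp-positive barcodes. Rhox5 was the exception, with 16.6 CPM at 1 Mgp UMI, 19.5 at 0 and 66.1 in the Mgp-positive barcodes. In 5 of the 10 the level also went up at each step over the 3 classes of Mgp-positive barcodes, as against 1 of the 10 lowest genes going down at each step. Both sets of genes were picked by the ratio of the Mgp-positive barcodes to those at 0 Mgp UMIs, so these counts support nothing further.

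The share of barcodes with a UMI differed in the same direction at equal depth. After thinning to 1000 UMIs, Spp1 was found in 78.6% of the Mgp-positive barcodes, in 45.2% of those at 0 Mgp UMIs and in 12.6% of the immune barcodes. Col3a1 was found in 38.5%, 13.6% and 2.83% of the same 3 classes. Sparcl1 was found in 15.4%, 4.52% and 0.435%. The immune barcodes, which should lack these matrix genes apart from Spp1, had the lowest share of each. All of these genes were picked for high ratios in the same contrast, and Sparcl1 is a given marker. Their shares with and without Mgp therefore support nothing further.

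The genes with the lowest ratios were Nppb, Tubb3, Ndrg1, Snhg5, Ccdc47, Amigo2, Srxn1, Ero1l, Csf1 and Gclm. For Ccdc47 and Gclm the class with 1 Mgp UMI did not lie between the other 2 levels. Nppb, the gene of a natriuretic peptide, stood at 20.2 CPM in the Mgp-positive barcodes and at 73.2 at 0 Mgp UMIs, 3.62-fold lower (2.09 to 6.72). Tubb3, a beta-tubulin, was 2.37-fold lower (1.42 to 4.15), and Ndrg1, which is induced by hypoxia, 2.33-fold (1.58 to 3.52). Ero1l, an oxidase of the endoplasmic reticulum that is also induced by hypoxia, stood at 102.5 CPM against 202.5, or 1.97-fold lower (1.52 to 2.59). Srxn1 and Gclm, both of the antioxidant response, were 1.99-fold and 1.90-fold lower. Csf1, the growth factor of macrophages, was 1.95-fold lower (1.22 to 3.21) but level with a log2 ratio of -0.05 when barcodes with UMIs of mitotic genes were left out.

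**Figure D3:**
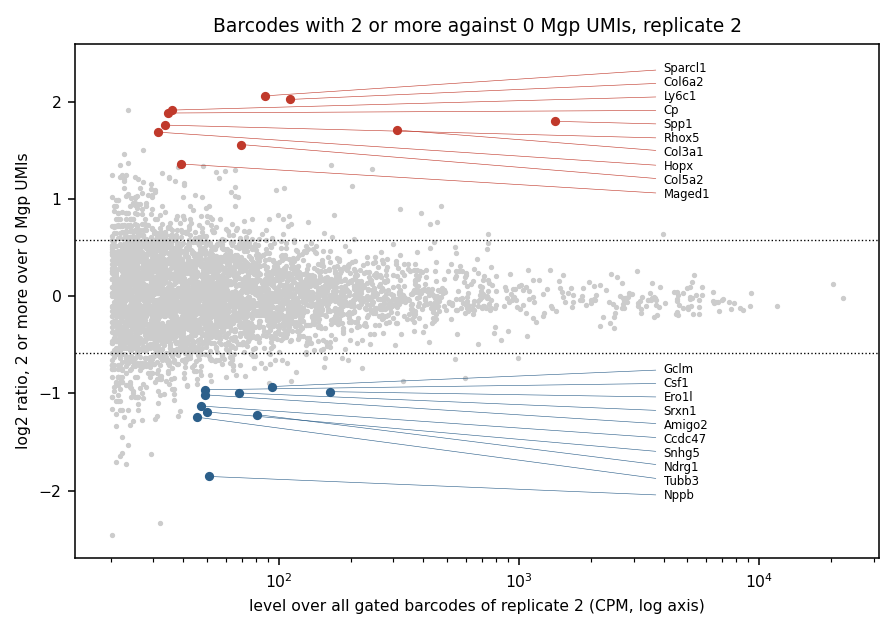
Log2 ratio of CPM between the Mgp-positive barcodes and those at 0 Mgp UMIs (y axis) against the level over all gated barcodes of replicate 2 (x axis, log scale), 1 point per gene, with dotted lines at 1.5-fold. The named genes are the 10 highest (red) and 10 lowest (blue) of those at 50 CPM or more in the class where they are higher, and the spread of the grey points widens towards low levels.

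Matrix genes were described by 6 lists (fibrillar collagens, other collagens, basement membrane, small leucine-rich proteoglycans, matricellular glycoproteins, elastic fibre and crosslinking). Of their 89 genes, 36 reached 20 CPM. Without the 3 given markers among them, 15 of 33 were higher and 1 was lower, with a median log2 ratio of 0.50 against -0.0019 over all genes. Under the 14 other settings of the analysis that used the same genes and fold, between 13 and 19 of the 33 were higher. Between 1 and 4 were lower. The counts over all genes also moved with the setting. After thinning, 16 of the 33 were higher and 4 lower, against 751 and 831 of 4591 genes. In that setting 11 of the 33 had a ratio below 1, against 5 in the main one. Without barcodes holding UMIs of mitotic genes, 18 of the 33 were higher and 1 lower, against 669 and 895 of 4540.

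Among the 8 fibrillar collagens, 5 reached 20 CPM, and Col1a2, Col3a1 and Col5a2 were higher. Col1a2, the second chain of collagen I, stood at 541 CPM against 299, or 1.81-fold (1.57 to 2.09). Summed over the list, the Mgp-positive barcodes had 1354 CPM (1272 to 1441), those with 1 Mgp UMI 900 and those with 0 Mgp UMIs 632 (590 to 677). The 16 barcodes with 2 or more Col1a1 UMIs had 28147 CPM for the same list. The Mgp-positive barcodes therefore held more fibrillar collagen RNA than the Mgp-negative ones and far less than those 16. The 18 barcodes that the gate removed for exactly 1 Col1a1 UMI lay nearer, with Col1a2 at 587 CPM (417 to 802), Bgn at 391 CPM against 395, and Fn1 at 1038 CPM against 965.7. Their Col3a1, at 1129 CPM (888 to 1415), was above the 566.5 CPM of the Mgp-positive barcodes, and their Spp1, at 1354 CPM (1089 to 1665), below the 2610 CPM.

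Of 7 other collagens at 20 CPM or more, Col6a1 (2.55-fold, 2.05 to 3.18), Col6a2 and Col16a1 (2.27-fold, 1.40 to 3.72) were higher and Col8a1 was 1.85-fold lower (0.89 to 4.21), though its log2 ratio was 0.48 without barcodes holding UMIs of mitotic genes. Col6a3, the most abundant collagen VI chain here, was 1.41-fold higher (1.23 to 1.62) and missed the 1.5-fold limit, at 515 against 364 CPM. Of 8 basement membrane genes, Col4a5 (2.83-fold, 1.62 to 5.06) and Col4a1 were higher, the latter on 20 UMIs per class. The laminin chains Lama5, Lamb1 and Lamc1 lay at 1.20-fold, 1.17-fold and 1.31-fold.

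Both small leucine-rich proteoglycans at 20 CPM or more, Bgn and Dcn, were higher. Dcn, the gene of decorin, was 2.03-fold higher (1.35 to 3.08), yet 28 of its 54 UMIs lay in 3 barcodes, and without the highest barcode the fold was 1.39. Of 7 matricellular genes Spp1, Sparcl1, Fn1 and Matn2 were higher. Fn1, the gene of fibronectin, stood at 965.7 CPM against 617.5, or 1.56-fold (1.41 to 1.73), while Sparc was 1.36-fold higher (1.20 to 1.54). Of 7 elastic fibre and crosslinking genes, Efemp1, Loxl1, Loxl3 and Ltbp3 were higher, between 1.61-fold and 1.90-fold. Loxl1 and Loxl3 are lysyl oxidases, which crosslink collagen and elastin.

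Most of the Mgp-positive barcodes held matrix RNA. At 1000 UMIs per barcode, with 88 genes of the 6 lists counted and Spp1 left out, they held a mean of 7.99 matrix UMIs, the barcodes with 1 Mgp UMI 6.0 and those with 0 Mgp UMIs 4.64. At least 3 matrix UMIs were found in 86.8% and 66.0% of the Mgp-positive and Mgp-negative barcodes. The share was 78.9% at 1 Mgp UMI and 79.5% at 2 to 3. Within the Mgp-positive barcodes the mean was 6.53 at 2 to 3 Mgp UMIs, 9.14 at 4 to 9 and 8.73 at 10 or more. The medians were 4 at 0, at 1 and at 2 to 3 Mgp UMIs, and 7 at 4 to 9 and at 10 or more. Without the given markers as well, the mean was 7.19 in the Mgp-positive barcodes and 4.36 at 0 Mgp UMIs. The medians without them were 4 at 0, at 1 and at 2 to 3 Mgp UMIs, and 6 at 4 to 9 and at 10 or more. By the median, the word matrix-rich thus describes the barcodes with 4 or more Mgp UMIs, relative to Mgp-negative ones of the same gate.

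Genes that fold, cut and bind matrix were described next. Of 14 genes of collagen folding and processing, Bmp1 (2.24-fold, 1.40 to 3.62), Fkbp10 (1.91-fold, 1.32 to 2.75) and Crtap (1.53-fold, 1.09 to 2.15) were higher. Bmp1 encodes the procollagen C-proteinase, and its name apart it is no BMP ligand. After thinning the log2 ratios of Bmp1 (-0.17) and Crtap (-0.16) were below 0. Serpinh1, the collagen chaperone, lay at 1.01-fold (0.87 to 1.18). Of 6 matrix proteases Mmp3 was higher (3.79-fold, 2.04 to 7.33, from 47.2 against 12.5 CPM) and Plat lower. Of 6 protease inhibitors Cst3 (1.87-fold, 1.59 to 2.19) and Timp3 (1.65-fold, 1.06 to 2.58) were higher, and Timp1 lay at 214.5 CPM against 214.9. Timp3 was level (log2 ratio -0.0018) without barcodes holding UMIs of mitotic genes. None of the 10 integrins and matrix receptors at 20 CPM or more passed 1.5-fold in either direction.

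**Figure D4:**
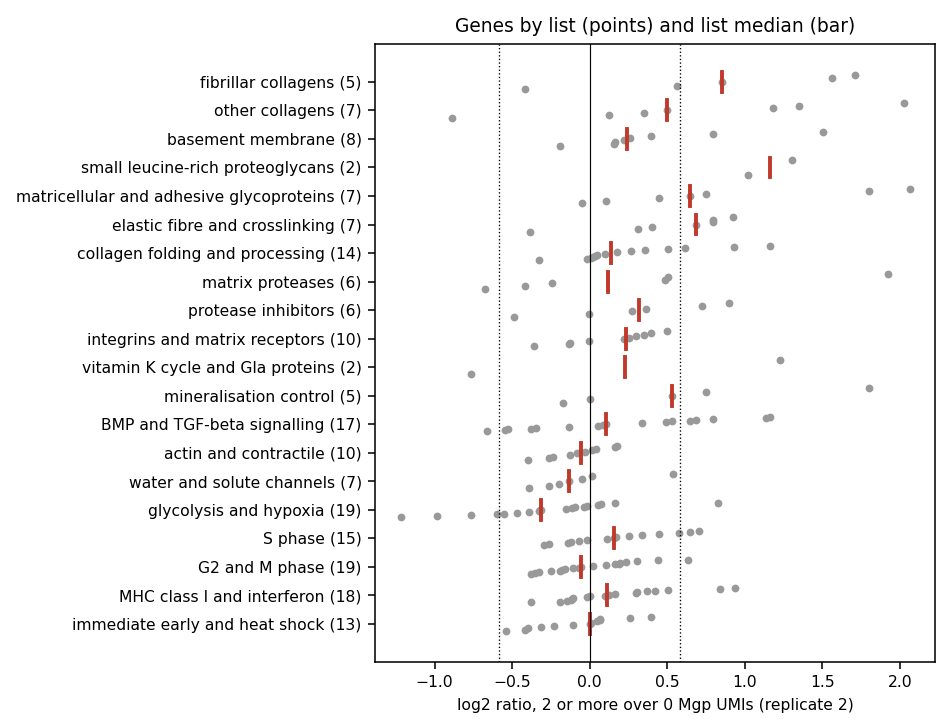
Log2 ratio of CPM between the Mgp-positive barcodes and those at 0 Mgp UMIs (x axis) for the genes of 20 lists (grey points, number at 20 CPM or more in parentheses), with list medians as red bars and dotted lines at 1.5-fold. The medians of the fibrillar collagens (0.86), the matricellular genes (0.65) and the elastic fibre genes (0.69) lie right of the 1.5-fold line, and that of glycolysis and hypoxia lies at -0.31. That of the small leucine-rich proteoglycans (1.17) rests on 2 genes. Given markers are included, namely Col5a2 among the fibrillar collagens, Sparcl1 among the matricellular genes and Bgn among the proteoglycans.

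Genes tied to the known work of matrix Gla protein were followed on their own lists. Vkorc1, which recycles vitamin K, was 2.34-fold higher (1.26 to 4.40) at 36.4 against 15.6 CPM, and Furin, a protease that matures many secreted proteins, 1.70-fold lower (0.98 to 3.08). They were the 2 of 12 genes of the vitamin K list that reached 20 CPM. Of 5 mineralisation genes at that level Spp1 and Ank were higher. Ank, which exports the mineralisation inhibitor pyrophosphate, stood at 569 CPM against 339, or 1.68-fold (1.47 to 1.93), while Sox9, a regulator of cartilage genes, was level at 258 and 257 CPM. Alpl and Bglap, markers of bone-forming cells, were at 0 UMIs in both classes.

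Ibsp, the gene of bone sialoprotein, was too low to be counted, at 38 UMIs (51.3 CPM) in the Mgp-positive barcodes and 3 UMIs (2.34 CPM) at 0 Mgp UMIs. Its ratio of 21.9 has a counting interval of 6.96 to 111. It was found in 9 of 182 barcodes, and 3 of them held 31 of the 38 UMIs. The class with 10 or more Mgp UMIs had 170.1 CPM, against 3.37 at 2 to 3 and 12.2 at 4 to 9. Ibsp was picked out after its values were seen.

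BMP ligands and their targets were described because matrix Gla protein binds BMPs. Of 17 genes of the BMP and TGF-beta list at 20 CPM or more, Bmp1, Bmp2, Fstl1, Id1 and Id3 were higher and Bmpr2, a receptor, was 1.58-fold lower (0.92 to 2.83). Bmp1, which is no BMP ligand, was also counted with collagen processing. Bmp2, a ligand, stood at 191.5 CPM against 122, or 1.57-fold (1.24 to 1.98). Id3, a transcriptional inhibitor induced by BMPs, stood at 141, 197, 246, 228 and 505 CPM from 0 to 10 or more Mgp UMIs. Over all Mgp-positive barcodes it was 2.20-fold higher (1.80 to 2.69), and Id1 1.61-fold (1.09 to 2.38). Grem1, a secreted BMP antagonist, lay lower at 104 against 152 CPM, within 1.5-fold. The list's median log2 ratio was 0.10. After thinning the log2 ratio of Bmpr2 was 0.36 and that of Bmp1 -0.17, both within 1.5-fold.

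Several of these genes lie near each other in the genome. In the mm10 build (GENCODE M21 annotation), Mgp is at chr6:136872435-136875823 on the minus strand. Sparcl1 (chr5:104079111-104113733), Ibsp (chr5:104299171-104311469) and Spp1 (chr5:104435118-104441050) fall in 1 stretch of chromosome 5. Col3a1 (chr1:45311538-45349706) neighbours Col5a2 (chr1:45374321-45503282), and Col6a2 (chr10:76595762-76623630) neighbours Col6a1 (chr10:76708792-76726168). Bgn is at chrX:73483602-73495933, and Aqp1 is at chr6:55336432-55348555.

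Glycolysis and hypoxia genes leaned the other way. Of 19 at 20 CPM or more, Hk2, Vegfa, Ero1l and Ndrg1 were lower, Pfkp was higher, and 15 of 19 had a ratio below 1, with a median log2 ratio of -0.31. Vegfa, the vascular growth factor, stood at 45.9 CPM against 77.9, or 1.70-fold lower (1.14 to 2.59). The abundant glycolytic genes differed little, with Gapdh at 2043 against 2094 CPM and Ldha at 575 against 623.

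Other programmes were close to level. None of 10 actin and contractile genes, 7 water and solute channels and 13 immediate early and heat shock genes reached 1.5-fold. Of 18 genes of MHC class I and interferon, Gbp2 (1.79-fold, 1.45 to 2.21) and Ifit1 were higher, but 18 of the 32 Ifit1 UMIs lay in 1 barcode, and without it the fold was 0.88. B2m lay at 2641 against 2636 CPM. Of 15 S phase genes Gins2 (1.63-fold, 0.98 to 2.71) and Mcm3 (1.57-fold, 0.98 to 2.49) were higher, and of 19 G2 and M phase genes Aurkb was (1.55-fold, 0.96 to 2.52), with a log2 ratio of -0.38 after thinning.

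UMIs of 6 mitotic genes were found in 59.3% of the Mgp-positive barcodes (51.8% to 66.5%) and in 52.1% of those at 0 Mgp UMIs, and after thinning to 1000 UMIs in 34.6% and 36.0%. The 108 Mgp-positive barcodes with such UMIs had a median of 4040 UMIs and 1082 CPM of fibrillar collagens. The other 74 had a median of 2463.5 UMIs and 2054 CPM. Both sets were above the 632 CPM of all barcodes at 0 Mgp UMIs. That level was not split by mitotic UMIs, so neither set is compared with like barcodes here.

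The marker lists of 16 cell types gave the Mgp-positive barcodes no cell type name. The 14 macrophage and monocyte markers summed to 99.8 CPM in the Mgp-positive barcodes, 122 at 0 Mgp UMIs and 13784 in the immune barcodes. The 12 T and NK cell markers summed to 35.1, 83.3 and 5304 CPM. C1qa, an abundant macrophage gene, stood at 20.2 CPM with and without Mgp, 0.90% of its level of 2250 CPM in the immune barcodes. The gate required 0 UMIs of 4 immune genes and the immune barcodes were picked for 2 of them, so this gap is in part set by the rule. The labels call all sorted cells immune cells.

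All 15 epithelial, 5 mesothelial, 6 B and plasma cell and 5 mast cell markers were at 0 UMIs in the Mgp-positive barcodes. At 0 Mgp UMIs these lists held 2, 1, 2 and 1 UMIs, so their near absence was shared. Of 14 endothelial markers 8 were detected, at 101 CPM in sum against 80.2 at 0 Mgp UMIs, with Kdr, Tek, Emcn, Cldn5, Vwf and Sox18 at 0. Of 14 pericyte and smooth muscle markers 5 were detected, with Tagln, Myh11, Notch3 and Des among those at 0. They summed to 64.7 CPM against 50.6 at 0 Mgp UMIs and 1073 CPM in the Col1a1 barcodes. Of 12 fibroblast markers 9 were detected, at 1783 CPM against 920 at 0 Mgp UMIs and 30492 in the Col1a1 barcodes, with Thy1, Dpt and Postn at 0. The gated barcodes of replicate 1, which lacked Mgp, had 1422 CPM (1367 to 1479) for the same fibroblast list. Of 10 chondrocyte and osteoblast markers 3 were detected (Sox9, Ibsp and Runx2), at 329 CPM against 269 at 0 Mgp UMIs, 42.5 in the immune and 239 in the Col1a1 barcodes. The gate itself removed barcodes with Col1a1 or Pecam1 UMIs, so low fibroblast and endothelial levels are in part set by the rule. Scrublet, a doublet caller run per library, marked 0 of the 182.

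**Figure D5:**
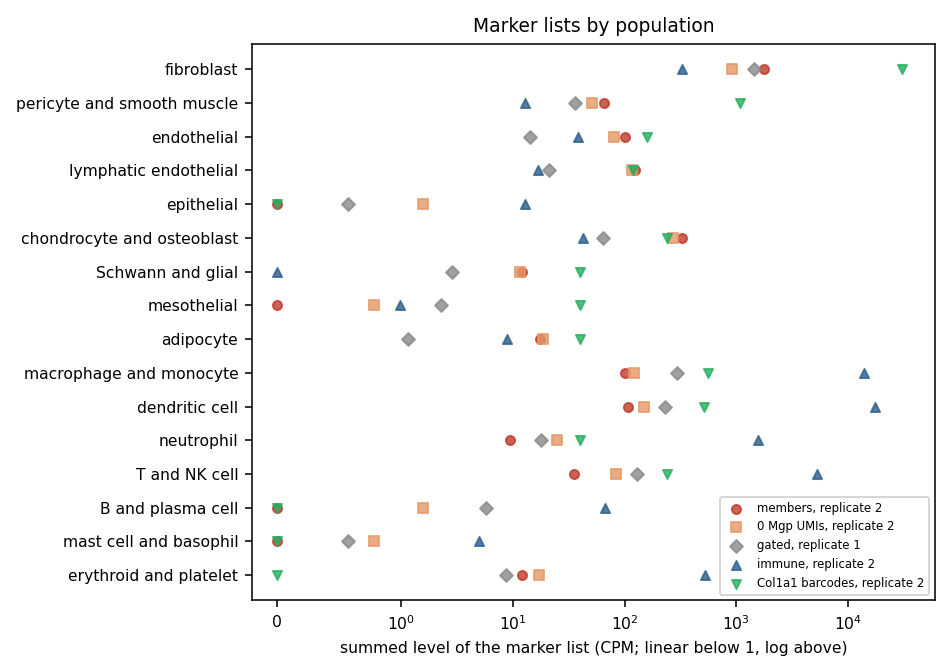
Summed level of each marker list in CPM (x axis, linear below 1 and log above) in 5 classes of barcodes. The Mgp-positive barcodes (red circles) lie at 0 for the epithelial, mesothelial, B cell and mast cell lists, at 99.8 CPM for macrophages, where immune barcodes have 13784, and at 1783 CPM for fibroblasts, where Col1a1 barcodes have 30492.

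The 4 Y-linked genes measured were present in replicate 2 and absent from replicate 1. They summed to 51.3 CPM in the Mgp-positive barcodes (36.3 to 70.4), 41.3 at 0 Mgp UMIs and 118 in the immune barcodes of replicate 2, and to 0 CPM in both the gated and the immune barcodes of replicate 1. Xist, the RNA of the inactive X chromosome, was at 0 UMIs in these classes of replicate 2 and stood at 23.0 CPM in the gated and 579 CPM in the immune barcodes of replicate 1. The immune barcodes thus had a female pattern in replicate 1 and a male one in replicate 2. A single animal shared by both libraries would not give this. The Y-linked genes were unequal between classes, since Ddx3y stood at 36.4 CPM in the Mgp-positive and 50.4 in the immune barcodes, whereas Eif2s3y stood at 0 and 45.5. The part of the sex-linked difference between the libraries in the Mgp difference was not tested.

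The gated barcodes of replicate 1 were also unlike those of replicate 2 in genes other than the markers. Col1a2 was at 0 CPM there, Dcn at 638 CPM against 72.8 in the Mgp-positive barcodes, and Rhox5 at 404 CPM against 66.1. Col3a1, at 696 CPM, and Col6a2, at 304 CPM, were above the 566.5 and 206 CPM of the Mgp-positive barcodes. Collagen III and VI RNA was therefore also found in gated barcodes of a library with hardly any Mgp. Spp1, at 54.7 CPM, was far below the Mgp-negative barcodes of replicate 2.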

How the data were processed

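The deposited matrices hold raw UMI counts of 32285 genes in each barcode, not normalised. Cell Ranger 6.0.1, Seurat 4.0.1 and the build mm10 are listed in the submitters' processing notes, without their roles. The gene annotation is not given in the sources used here, and gene positions were taken from GENCODE M21 by gene ID. Counts were summed per class, scaled to CPM and given exact Poisson intervals, with exact binomial intervals for ratios and shares (95%). Thinning drew 1000 UMIs per barcode. Tools were Python 3.11.15, scipy 1.17.1, scanpy 1.11.5 and, for TMM factors, edgeR 4.0.16.

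An edgeR test across both libraries had been planned and was not run, since replicate 1 holds 0 of the chosen barcodes, so there is no p-value. A ratio of 1.5-fold at 20 CPM replaced it. Genes were named as the given markers, the 10 highest and 10 lowest ratios at 50 CPM or more, the most abundant or counted genes of each list, and sex-linked genes. The barcodes and gene lists were chosen with earlier results of these data known. The formulas of the ratio and its counting interval were tested on simulated total counts. The other steps were not tested in this way. Lists left out symbols that name 2 gene IDs (Aldoa, Ccl21a).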

Additional observations from a re-analysis of the deposited data

Results flagged for a closer look

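Outside the gate, 59 barcodes of replicate 2 that passed the gene and mitochondrial filters and had at least 1000 UMIs held 2 or more Mgp UMIs. They entered no comparison above. Of 241 such barcodes in all, the other 182 are those described. By the gene that placed barcodes outside, 29 had Tyrobp, 26 Fcer1g, 10 Ptprc, 10 Laptm5, 10 Col1a1 and 1 Pecam1 UMIs, and a barcode can count under several genes. In replicate 1 no barcode had 2 Mgp UMIs.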

How the results depend on the processing

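No paired analysis was possible because replicate 1 holds 0 Mgp-positive barcodes, so the planned edgeR and DESeq2 fits, with or without the library as a block, were not run. Leaving out replicate 1 kept the share at 25.6%, and leaving out replicate 2 left 0. The share in replicate 2 was 40.9% at 1 or more Mgp UMIs, 19.3% at 3 or more, 31.2% of barcodes with 2000 or more UMIs and 12.9% after thinning. Against 294 higher and 280 lower genes, the counts were 2102 and 1653 with no level minimum, 665 and 668 at 10 CPM, 69 and 56 at 50 CPM, and 65 and 48 at 2-fold. They were 669 and 895 without barcodes holding UMIs of mitotic genes, 751 and 831 after thinning, and 452 and 622 at 1000 or more Mgp per 1000000 UMIs. Lower genes were 461 without barcodes holding C1q, Lyz2 or Cd74 UMIs, and higher genes 455 with equal weight per barcode. Thinning and left-out barcodes lower the UMIs behind each ratio. With TMM or median ratio factors the median of all genes moved to -0.04. The 10 named higher genes passed 1.5-fold in all 14 alternatives that kept the gene set and fold, and 8 of the 10 lower ones did, Amigo2 (13) and Csf1 (11) being the exceptions. These genes were picked for extreme ratios in the same contrast, and the alternatives reuse its barcodes, so these counts support nothing further.

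Log2 ratios turned in sign after thinning for Aurkb (-0.38), Bmp1 (-0.17), Bmpr2 (0.36) and Crtap (-0.16). Without barcodes holding UMIs of mitotic genes they did for Col8a1 (0.48), Timp3 (-0.0018) and Ifit1 (-2.75). Ifit1 also turned at 3 or more Mgp UMIs (-0.69), at 1000 or more Mgp per 1000000 UMIs (-0.27) and without its highest barcode (-0.19). The cause was not tested. In the Mgp-positive barcodes 1 UMI is worth 1.35 CPM, so 20 CPM there is 15 UMIs, which limits ratios of low genes.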
